A study of Mus musculus with 56 samples.

Results

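The genes described here are Myc and 34 genes of ribosome biogenesis, a fixed list of 35 symbols that was looked up in the deposited table of normalised read counts. All 35 were found among its 14870 mouse genes, and all 35 passed the filter on low values (a mean of at least 1 CPM of the column total over the 56 libraries), which 13017 genes passed. By role, the list holds the regulator Myc, 5 genes of RNA polymerase I and its initiation factors, 4 of the box C/D and 4 of the box H/ACA small nucleolar ribonucleoproteins (snoRNPs), 5 of nucleolar organisation, 5 of small subunit assembly and 11 of large subunit assembly. The rule itself uses no measured value, but the list was drawn up with earlier results of these data known.

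The samples were whole tibialis anterior muscles (a muscle of the front of the lower leg) of mice, profiled by bulk RNA sequencing. Mice were wild type (WT) or carried the titin mechanical knock-out on 2 alleles (HOMO mKO) or on 1 allele (HET mKO). In this model the giant sarcomere protein titin holds a recognition site for the TEV protease, a plant virus enzyme, and an adeno-associated virus (AAV) supplies that protease fused to green fluorescent protein; the control injection was saline. Muscles were taken 3, 7 or 21 days post injection (dpi). The WT saline groups held 3, 3 and 4 libraries at 3, 7 and 21 dpi, and the WT AAV groups 5, 4 and 4. The HOMO mKO saline groups held 4 libraries on each day, and the HOMO mKO AAV groups 4, 5 and 4. HET mKO muscle was taken at 7 dpi only, with 4 saline and 4 AAV libraries. Every comparison of AAV with saline within 1 genotype and day thus holds the virus, the protease and, in mKO muscle, the cut titin together, and the AAV groups in WT muscle carry the virus and protease without the site. Age and sex are not in the labels used here, nor is the number of animals behind a group, so p-values measure the spread between these samples, part of which may be technical.

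Recovered reads per library spanned 6.9 to 27.18 M (median 21.69 M); the shallowest was replicate 2 of HOMO mKO AAV at 7 dpi. Reads of the viral transgene numbered 56 to 34407 in AAV libraries and 0 to 6 in saline libraries, which checks the label for AAV. The level of titin messenger RNA does not show whether the protein was cut, so the mKO labels were not checked. Genes of the skeletal muscle fibre were abundant in every library: the summed level of the 8 fibre markers was 54163 to 105038 in HOMO mKO AAV libraries at 21 dpi, the lowest group, and 138842 to 151733 in the matching saline libraries. Whole muscle holds several cell types, and in bulk RNA a change in the number of cells of a type and a change in RNA per cell cannot be told apart.

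Ribosomes are made in the nucleolus, where RNA polymerase I transcribes the large ribosomal RNA precursor, snoRNPs guide its chemical modification, and assembly factors fold and cut it into the small and large subunit. Myc is a transcription factor that binds DNA with its partner Max, often at the E-box hexamer CACGTG, and raises many genes of ribosome biogenesis in growing cells. Skeletal muscle is known to make more ribosomes when it is loaded and grows, and activated immune and satellite cells also enlarge their nucleoli.

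The 250 bases before the annotated start were searched for the E-box because Myc and its possible targets are set side by side here. RefSeq windows (GRCm38.p6) were found for 30 of the 35 genes, in 39 windows, with none for Myc. CACGTG, which reads the same on both strands, was present in 2 of 39 windows (5.1%), those of Nop2 and Rrn3, against 8.2% of the 12771 windows of tested genes and 6.0% of all 32851 windows. Rrn3 held 2 matches, of which the one farther from the start is shown, and Nop2 held 1. The matches shown are printed in capitals with their surroundings, 5′ to 3′ on the gene's strand. The Nop2 stretch is chr6:125131796-125131855 (plus strand), with the motif starting 60 bases before the RefSeq start, and the Rrn3 stretch is chr16:13780457-13780516 (plus strand), with it starting 215 bases before.
Nop2: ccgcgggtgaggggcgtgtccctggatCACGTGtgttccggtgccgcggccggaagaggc
Rrn3: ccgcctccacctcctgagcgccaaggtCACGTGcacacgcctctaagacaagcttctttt
A match is a description of these letters and not a measured binding site. Nop2 changed by 0.35 and Rrn3 by -0.05 (log2) in HOMO mKO muscle at 3 dpi, the comparison in which most of the 35 genes were higher.

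The upstream stretches of 3 genes with large increases at 3 dpi are shown for a second reason: they hold 1 or both of 2 short motifs that are common in promoters of housekeeping genes. The first is the ETS-type motif CCGGAA, and its reverse complement reads TTCCGG. The second is the GC box GGGCGG, and its reverse complement reads CCGCCC. These 2 motifs were chosen after the expression values were known. Each stretch is the 100 bases that end just before the first annotated exon, with matches in capitals: Gar1 at chr3:129831397-129831496 (minus strand), Nop58 at chr1:59684871-59684970 (plus strand) and Nhp2 at chr11:51619635-51619734 (plus strand).
Gar1: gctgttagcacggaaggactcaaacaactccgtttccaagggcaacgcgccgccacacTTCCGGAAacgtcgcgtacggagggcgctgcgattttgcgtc
Nop58: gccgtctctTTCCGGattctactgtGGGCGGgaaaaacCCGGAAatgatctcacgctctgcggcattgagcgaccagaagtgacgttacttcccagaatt
Nhp2: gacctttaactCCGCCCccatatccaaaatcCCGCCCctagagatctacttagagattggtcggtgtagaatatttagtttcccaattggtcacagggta
The capitals in Gar1 are both strands of the ETS-type motif overlapping. Heatr1, the next largest increase with a window, held neither motif in its stretch of 100 bases. It held the ETS-type motif elsewhere in its 250 bases. Over the 250 bases, the ETS-type motif was in 10 of 39 windows (25.6%) against 20.8% of windows of tested genes, and the GC box in 25 of 39, against 7158 of the 12771 windows of tested genes, so both shares were a little above those of tested genes.

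In HOMO mKO muscle at 3 dpi, 24 of the 35 genes were higher with AAV than with saline and 0 were lower, at an adjusted p (limma, Benjamini-Hochberg over all 13017 genes) under 0.05. Of all genes tested, 17.4% were called higher and 17.2% lower. The median change over the 35 genes was 0.37 on the log2(value + 1) scale, against -0.01 over all tested genes, and 32 of 35 estimates were above 0. Changes ran from -0.06 (Nop10) to 1.77 (Myc). For 23 of the 35 genes, every AAV library lay above every saline library, against 14.3% of all tested genes, and for 0 genes the reverse held, against 13.4%. At 7 dpi the picture in the same genotype was mixed, with 5 genes higher and 9 lower (20.6% and 22.5% of all genes, 43.1% in all), and at 21 dpi 14 were higher and 5 lower (29.7% and 29.6%, 59.3% in all). In WT muscle at 3 and 7 dpi, 0 of 35 were called, as were 0 of the 13017 tested genes.

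**Figure D1:**
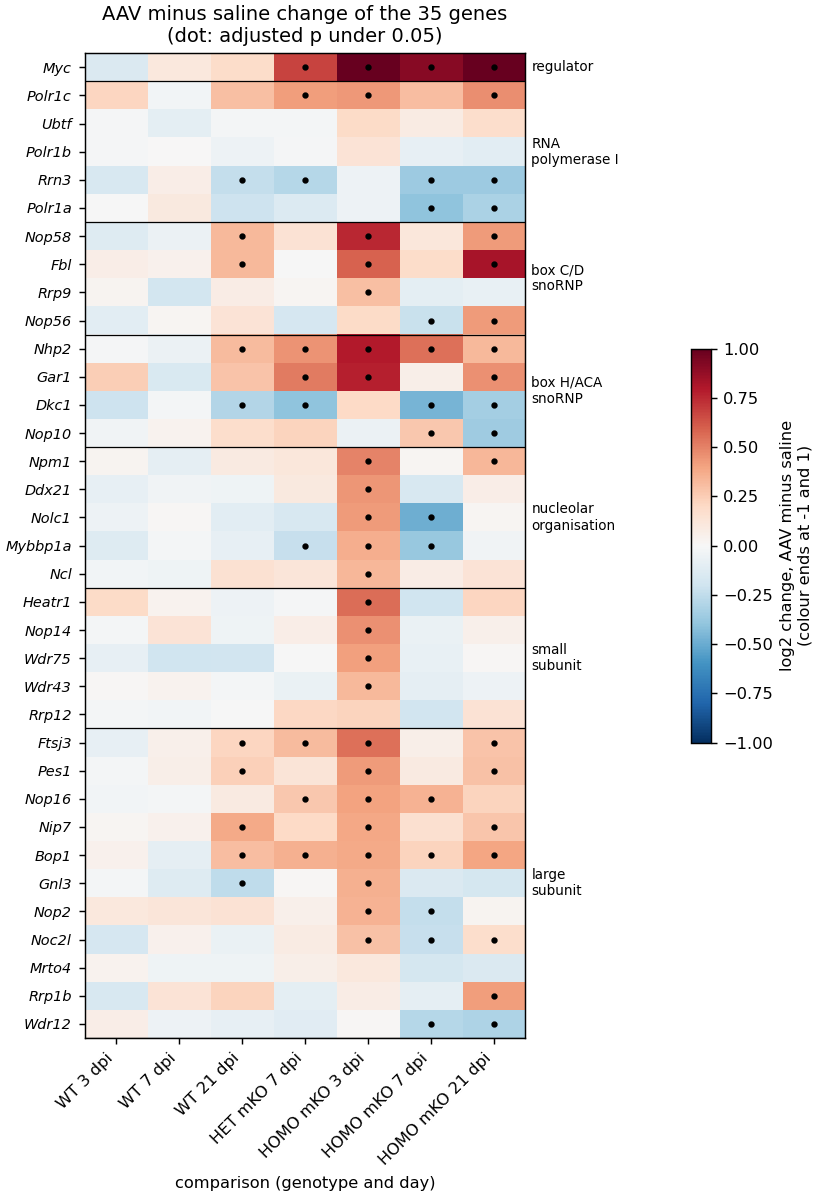
Log2 change (AAV minus saline, log2(value + 1) scale) of the 35 genes, in rows by role, in the 7 comparisons of AAV with saline, in columns; colour ends at -1 and 1 and a dot marks an adjusted p under 0.05. The column of HOMO mKO at 3 dpi holds 24 dots, all for increases, and the WT columns at 3 and 7 dpi hold none.

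Myc lies at chr15:61985391-61990374 (plus strand, GRCm38, GENCODE M21) and encodes the regulator described above. Its normalised counts in HOMO mKO muscle at 3 dpi were 1.40, 2.00, 3.21 and 4.81 with saline and 13.2, 11.8, 13.8 and 7.93 with AAV. The lowest AAV library, replicate 4, stood above the highest saline library, and the ratio of the group means was 4.09. The change was 1.77 ± 0.24 on the log2 scale (SE, adjusted p = 2.25e-07), and stayed between 1.57 and 2.00 when any 1 library was left out.

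On the later days Myc remained above saline in HOMO mKO muscle. At 7 dpi its counts were 2.06, 4.82, 4.53 and 1.80 with saline and 5.72, 7.24, 7.25, 6.72 and 6.51 with AAV, a change of 0.91 ± 0.23 (SE, adjusted p = 0.00107). At 21 dpi they were 2.23, 2.68, 4.09 and 3.77 with saline and 10.2, 7.22, 7.26 and 8.25 with AAV, a change of 1.15 ± 0.24 (SE, adjusted p = 5.5e-05). On both days the AAV and saline libraries did not overlap, and the ratios of means were 2.02 and 2.58. The change at 7 dpi minus that at 3 dpi was -0.86 ± 0.33 (SE, adjusted p = 0.111), so a difference between the days did not pass the test.

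HET mKO muscle had Myc counts of 2.97, 4.11, 5.65 and 5.18 with saline and 5.13, 6.70, 9.18 and 10.4 with AAV at 7 dpi. The lowest AAV library lay within the saline range, and the change was 0.68 ± 0.24 (SE, adjusted p = 0.02). This call was lost without replicate 1 of HET mKO saline, replicate 3 of HET mKO AAV or replicate 4 of HET mKO AAV, with a change of 0.53 at the lowest. In WT muscle at 3 dpi the counts were 2.60, 5.01 and 4.75 with saline and 4.17, 2.73, 5.27, 2.79 and 3.08 with AAV. At 7 dpi they were 2.02, 3.24 and 3.25 against 2.73, 2.54, 4.80 and 2.59, and at 21 dpi 3.61, 3.31, 4.17 and 4.74 against 4.49, 3.68, 6.25 and 4.30. The WT groups overlapped on every day, with changes of -0.15, 0.11 and 0.19 that did not pass the test. The HOMO mKO change exceeded the WT change by 1.92 ± 0.34 at 3 dpi (SE, adjusted p = 0.000365), while the differences at 7 dpi (0.81, adjusted p = 0.0868) and 21 dpi (0.96, adjusted p = 0.0804) missed the threshold.

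**Figure D2:**
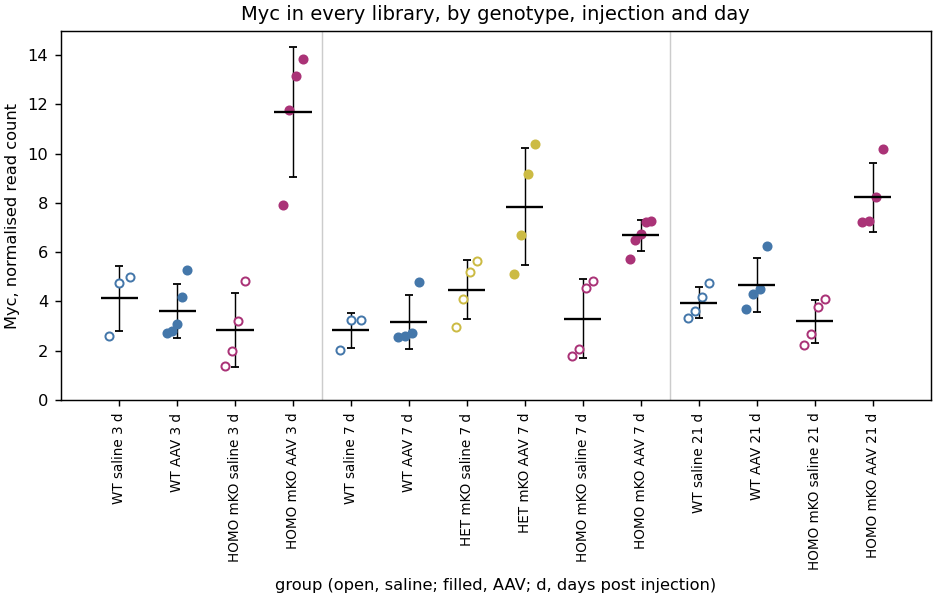
Normalised read count of Myc in each of the 56 libraries, by group; open points are saline, filled points AAV, bars the group mean and error bars the SD. The 4 HOMO mKO AAV libraries at 3 dpi range from 7.93 to 13.8, and the HOMO mKO AAV libraries lie above their saline libraries on each of the 3 days.

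The role counts that follow stand against 17.4% of all tested genes called higher in HOMO mKO muscle at 3 dpi. Of the RNA polymerase I genes, 1 of 5 was higher, a share near that of all genes: Polr1c, a subunit shared with RNA polymerase III. Its counts in HOMO mKO muscle were 6.09, 6.14, 7.07 and 6.16 with saline and 11.5, 7.60, 9.12 and 7.99 with AAV, which did not overlap, for a change of 0.44 ± 0.15 (SE, adjusted p = 0.0232). This call was lost under 1 of 12 alternative settings and in 4 of 8 fits that left out 1 library. Ubtf, the factor that opens ribosomal DNA for transcription, had counts of 40.3, 43.0, 34.7 and 39.1 with saline and 47.3, 40.6, 48.6 and 43.6 with AAV. Those ranges overlapped, and the change of 0.19 ± 0.09 (SE, adjusted p = 0.0994) was not called, with an unadjusted 95% interval of 0.01 to 0.38. The catalytic subunit Polr1a and the initiation factor Rrn3 each changed by -0.05 at 3 dpi and the second subunit Polr1b by 0.13, with no call.

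Of the box C/D snoRNP proteins, which methylate ribosomal RNA, 3 of 4 were higher in HOMO mKO muscle at 3 dpi. Nop58, a core protein of the particle (chr1:59684971-59719044, plus strand), had counts of 12.8, 12.5, 13.7 and 11.4 with saline and 19.2, 19.4, 28.2 and 21.6 with AAV. All AAV libraries were above all saline libraries, by a ratio of means of 1.75 and a change of 0.75 ± 0.12 (SE, adjusted p = 9.59e-06). Fbl encodes fibrillarin, the methyltransferase itself (chr7:28169710-28179269, plus strand), and had counts of 11.1, 13.6, 13.6 and 12.1 with saline and 23.7, 20.2, 19.3 and 15.4 with AAV. Again there was no overlap, and the change was 0.59 ± 0.13 (SE, adjusted p = 0.000375). Rrp9, a protein of the U3 particle, changed by 0.30 (adjusted p = 0.0266). The Rrp9 call was lost under 2 of 12 alternative settings and in 5 of 8 fits that left out 1 library. Nop56, the partner of Nop58, changed by 0.19 (adjusted p = 0.0742).

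The box H/ACA snoRNPs convert uridine to pseudouridine. Nhp2, one of their core proteins (chr11:51619735-51623714, plus strand), had counts in HOMO mKO muscle at 3 dpi of 10.5, 10.5, 10.4 and 11.05 with saline and 21.9, 17.2, 19.8 and 17.5 with AAV. These groups lay far apart, with a ratio of means of 1.81 and a change of 0.79 ± 0.10 (SE, adjusted p = 1.24e-07). Gar1, another core protein, had counts of 5.14, 5.54, 4.40 and 5.83 with saline and 9.501, 8.26, 10.9 and 10.01 with AAV, with no overlap and a change of 0.78 ± 0.15 (SE, adjusted p = 0.000105). The other 2 proteins of the same particle were not called: Dkc1, the pseudouridine synthase dyskerin, changed by 0.20 (adjusted p = 0.132) and Nop10 by -0.06. The particle's 4 proteins thus did not all pass the test at 3 dpi.

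All 5 genes of nucleolar organisation were higher in HOMO mKO muscle at 3 dpi. Ddx21, an RNA helicase of the nucleolus, had counts of 57.6, 57.7, 61.0 and 57.2 with saline and 67.0, 78.6, 90.6 and 84.4 with AAV, a change of 0.44 ± 0.08 (SE, adjusted p = 6.2e-05). Mybbp1a, a nucleolar protein that binds Myb and other transcription regulators (chr11:72441355-72451768, plus strand), had counts of 83.5, 79.0, 83.8 and 82.4 with saline and 109, 99.8, 113 and 103 with AAV. For both genes the 2 groups did not overlap. The Mybbp1a change was 0.37 ± 0.07 (SE, adjusted p = 0.000143). Nucleolin (Ncl) changed by 0.33, nucleophosmin (Npm1) by 0.50 and Nolc1, a chaperone of snoRNPs, by 0.42, all called.

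Among the small subunit genes, 4 of 5 were higher at 3 dpi. Heatr1, a component of the early small subunit processome, had counts of 14.6, 14.1, 13.6 and 15.0 with saline and 18.6, 19.97, 26.0002 and 22.3 with AAV. Nop14, which belongs to the same large complex, had 20.01, 20.2, 20.4 and 20.3 with saline and 28.7, 24.1, 29.8 and 30.4 with AAV. Neither gene's groups overlapped, and the changes were 0.56 ± 0.13 (SE, adjusted p = 0.000608) and 0.46 ± 0.11 (SE, adjusted p = 0.000981). Wdr75 (0.41) and Wdr43 (0.33) were also called, the latter not in every alternative, and Rrp12 (0.22, adjusted p = 0.182) was not.

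Large subunit assembly gave 8 of 11 genes higher at 3 dpi. Ftsj3, a methyltransferase of the precursor RNA, had counts of 30.3, 25.98, 30.2 and 34.6 with saline and 42.8, 41.5, 51.7 and 42.8 with AAV, a change of 0.55 ± 0.09 (SE, adjusted p = 4.76e-06). Pes1, which forms the PeBoW complex with Bop1 and Wdr12, had 29.8, 31.97, 30.4 and 27.1 with saline and 39.8, 36.8, 45.1 and 39.9 with AAV, a change of 0.42 ± 0.08 (SE, adjusted p = 3.23e-05). Both were without overlap. Of the other PeBoW members, Bop1 was higher by 0.38, and Wdr12 stood at 0.01 with no call. Nop16 (0.40), Nip7 (0.39, lost in at least 1 alternative), nucleostemin (Gnl3, 0.36), the RNA methyltransferase Nop2 (0.35) and Noc2l (0.29) were called, while Mrto4 (0.11) and Rrp1b (0.08) were not.

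**Figure D3:**
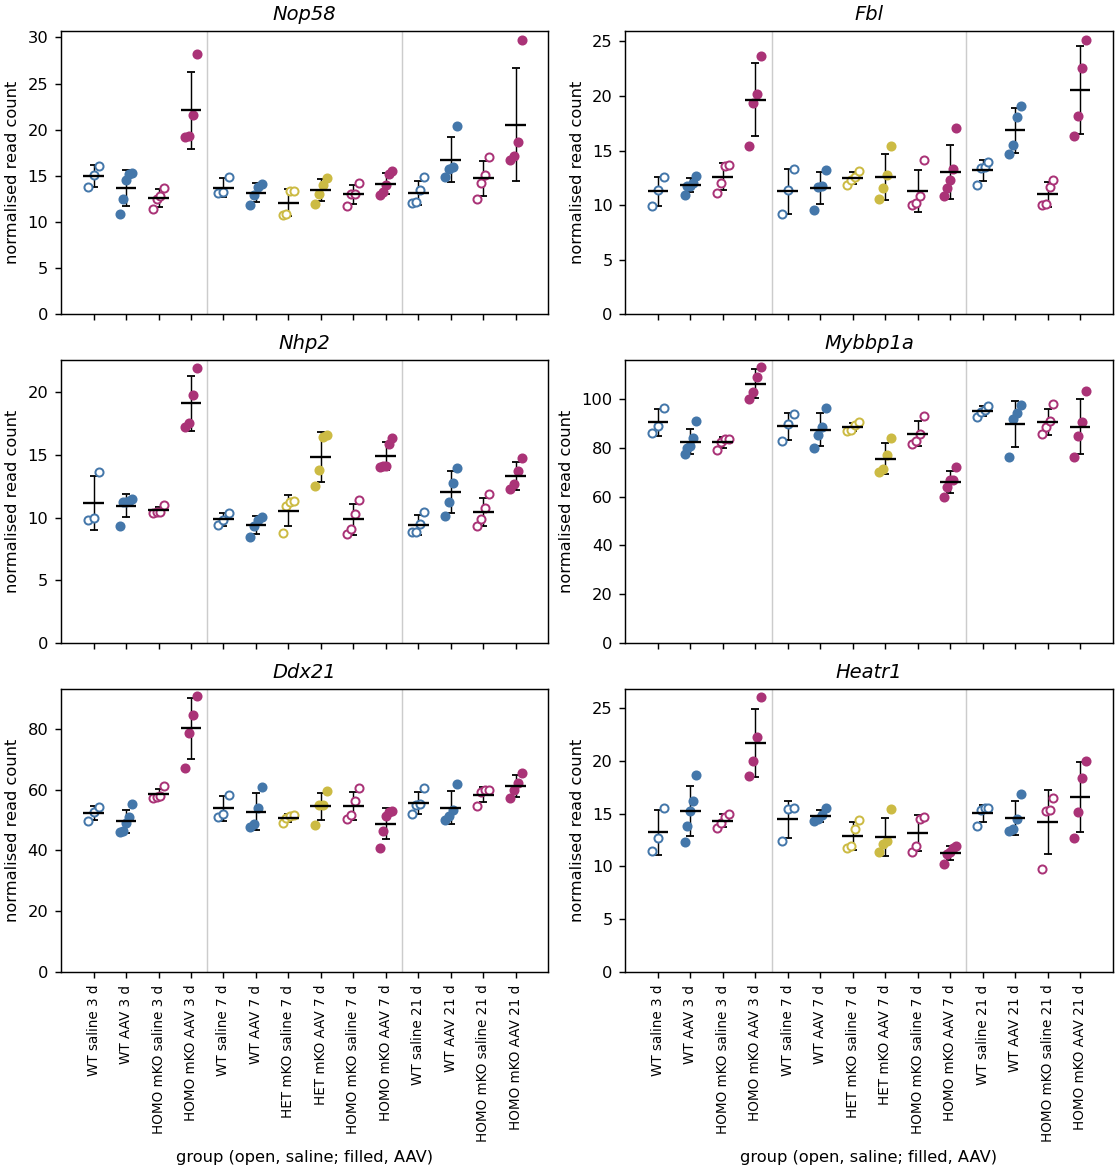
Normalised read count of Nop58, Fbl, Nhp2, Mybbp1a, Ddx21 and Heatr1 in each library, by group; open points are saline and filled points AAV. In all 6 genes the HOMO mKO AAV libraries at 3 dpi lie above the matching saline libraries, and Mybbp1a lies below them at 7 dpi.

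In WT muscle at 3 dpi, limma called 0 of the 35 genes and 0 of all tested genes, while 1 of the 35 had an unadjusted p under 0.05; edgeR, DESeq2 and limma voom on the recovered reads also called 0 of the 35. At 7 dpi limma again called 0 of 35 and 0 of all tested genes, with 0 of the 35 at an unadjusted p under 0.05, and the other 3 tools called 0 of 35. The difference between the HOMO mKO and WT changes at 3 dpi was called higher in HOMO mKO for 12 genes and lower for 0, where 5.39% of all genes were called higher and 4.36% lower (9.75% in all). Those 12 were Myc, Nop58 (0.88 ± 0.18 SE, adjusted p = 0.00145), Nhp2 (0.81 ± 0.15 SE, adjusted p = 0.000522), Ftsj3 (0.63), Ddx21 (0.52), Mybbp1a (0.49), Wdr75 (0.49), Nop14 (0.48), Nolc1 (0.47), Noc2l (0.46), Pes1 (0.44) and Ncl (0.36). The difference for Fbl was 0.52 (adjusted p = 0.0618), for Gar1 0.53 (adjusted p = 0.11) and for Heatr1 0.37 (adjusted p = 0.191). Nop58 counts in WT muscle with AAV at 3 dpi were 14.5, 12.5, 15.3, 10.9 and 15.2, all below the 4 HOMO mKO AAV libraries. The level of the viral transgene differed between these groups as well: it was 31.2 to 80.6 normalised counts in HOMO mKO AAV libraries at 3 dpi (median 42.9) and 3.31 to 48.4 in WT (median 9.6), and its part in the differences was not tested. Without replicate 3 of HOMO mKO AAV at 3 dpi, the library with the highest counts of Nop58, Ddx21 and Heatr1, 8 of the 12 differences were called.

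At 7 dpi in HOMO mKO muscle the genes called higher were Myc, Nhp2 (0.55 ± 0.10 SE, adjusted p = 1.26e-05), Nop16 (0.35), Nop10 (0.27) and Bop1 (0.23). The Bop1 call (adjusted p = 0.0474) was lost in 7 of 9 fits that left out 1 library and under 2 of 12 alternative settings, and the Nop10 call in 2 and under 1. Nhp2 counts were 10.3, 9.10, 8.73 and 11.4 with saline and 14.2, 16.4, 14.1, 15.9 and 14.1 with AAV, again without overlap. Nop10, the smallest H/ACA protein, ranged from 21.1 to 24.0 with saline and from 24.3 to 28.4 with AAV. Nop58 (12.9, 15.5, 14.04, 13.2 and 15.2 with AAV), Fbl and Gar1 were not called at 7 dpi, with changes of 0.12, 0.18 and 0.06. Gar1 counts with AAV were 5.30, 4.07, 5.60, 6.65 and 6.25, all below the AAV libraries at 3 dpi.

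The 9 genes called lower at 7 dpi came from several roles. As a share of the 35 they were near the 22.5% of all genes called lower. The genes called higher were a smaller share than the 20.6% of all genes called higher. Mybbp1a counts were 83.0, 92.8, 81.4 and 85.8 with saline and 71.9, 63.8, 66.9, 66.7 and 59.8 with AAV, a change of -0.38 ± 0.07 (SE, adjusted p = 2.66e-05). All 5 AAV libraries lay below all 4 saline libraries, the opposite order to 3 dpi. Nolc1 ranged from 24.7 to 34.1 with saline and from 19.5 to 22.1 with AAV (-0.49 ± 0.10 SE, adjusted p = 0.000163). The catalytic RNA polymerase I subunit Polr1a ranged from 49.3 to 54.2 with saline and from 32.1 to 45.9 with AAV (-0.40, adjusted p = 0.000206), and Rrn3 from 45.8 to 52.8 and from 34.5 to 44.0 (-0.37, adjusted p = 0.000717). Dkc1 ranged from 21.7 to 24.6 with saline and from 14.6 to 21.0 with AAV (-0.46, adjusted p = 0.000131). Wdr12 (-0.29), Nop2 (-0.24), Noc2l (-0.23) and Nop56 (-0.22) were lower as well. Of these the Nop2 call (adjusted p = 0.049) was lost under 8 of 12 alternative settings and in 5 of 9 fits that left out 1 library, Wdr12 under 3 and in 4, and Nop56 under 2 and in 4. Ddx21 counts of 52.8, 51.1, 52.7, 46.5 and 40.7 with AAV overlapped the 60.5, 51.5, 56.3 and 50.3 of saline muscle (-0.16, adjusted p = 0.0895). Heatr1 counts were 14.7, 11.4, 14.5 and 12.0 with saline and 10.3, 11.7, 11.9, 11.2 and 11.3 with AAV (-0.20, adjusted p = 0.186).

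The response to AAV was lower at 7 dpi than at 3 dpi, by a test of the difference itself, for 16 of the 35 genes and higher for 0, where 3.16% of all genes were called lower and 2.8% higher. The median difference over the 35 genes was -0.41. Among these 16 the greatest falls were in Nolc1 (-0.91 ± 0.15 SE, adjusted p = 8.92e-05), Heatr1 (-0.75 ± 0.17 SE, adjusted p = 0.00536) and Mybbp1a (-0.74 ± 0.10 SE, adjusted p = 6.71e-06). Gar1 (-0.72), Dkc1 (-0.66), Nop58 (-0.63), Ddx21 (-0.61), Nop2 (-0.59), Noc2l (-0.52), Nop14 (-0.52), Gnl3 (-0.50), Ftsj3 (-0.49), Wdr75 (-0.48), Wdr43 (-0.41), Nop56 (-0.41) and Pes1 (-0.34) followed. The list spans every role but the regulator and the RNA polymerase I genes. Without replicate 3 of HOMO mKO AAV at 3 dpi, 10 of the 35 genes were called, and 7 of the 16 calls were kept under every alternative setting and without any 1 library. Of the 24 genes higher at 3 dpi, 4 were called higher at 7 dpi (Myc, Nhp2, Bop1 and Nop16) and 4 lower (Mybbp1a, Noc2l, Nolc1 and Nop2). The Bop1 and Nop2 calls at 7 dpi were lost in most fits that left out 1 library. These overlaps between days were not counted over all tested genes.

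**Figure D4:**
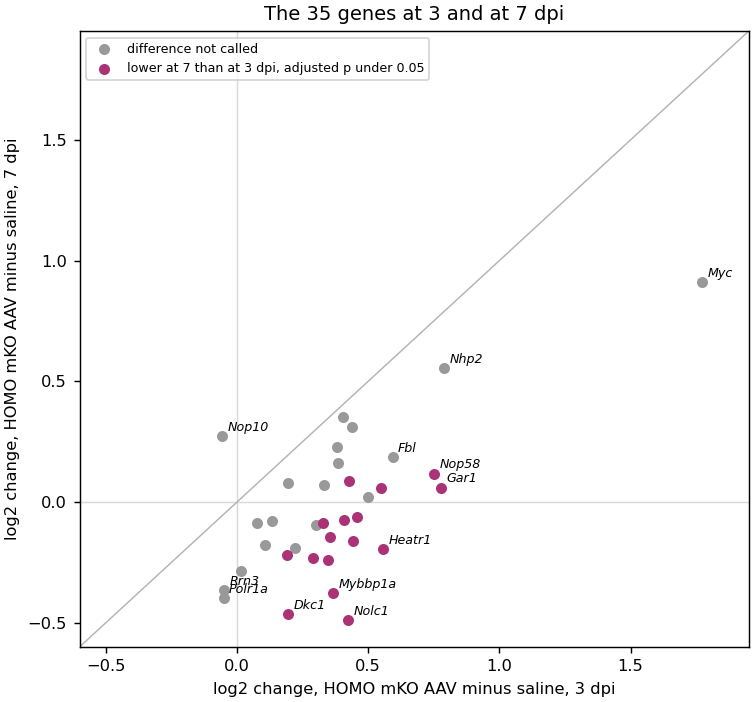
Log2 change with AAV in HOMO mKO muscle at 3 dpi (horizontal axis) and 7 dpi (vertical axis), log2(value + 1) scale, 1 point per gene; purple points are the 16 genes whose change was lower at 7 than at 3 dpi by the test of the difference. All purple points lie below the line of equal change, and Myc and Nhp2 are high on both axes.

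At 21 dpi in HOMO mKO muscle, 14 genes were called higher, where 29.7% of all tested genes were. Of these 14, 12 were among the 24 called higher at 3 dpi, and Nop56 and Rrp1b were not. The same overlap between days was not counted over all tested genes. Besides Myc the largest change was in Fbl, whose counts were 10.1, 11.7, 12.3 and 10.004 with saline and 25.1, 16.3, 22.6 and 18.1 with AAV. That is a ratio of means of 1.86 without overlap, and a change of 0.83 ± 0.13 (SE, adjusted p = 4.66e-07). At 7 dpi Fbl counts with AAV had been 11.6, 17.1, 10.9, 13.3 and 12.3, and the change rose by 0.64 ± 0.18 between 7 and 21 dpi (SE, adjusted p = 0.0119). Nop58 counts at 21 dpi were 17.0, 15.1, 12.5 and 14.3 with saline and 29.7, 16.7, 18.6 and 17.2 with AAV, with replicate 1 far above the rest and 1 AAV library within the saline range (0.42, adjusted p = 0.00319). Nhp2 counts were 11.9, 9.33, 10.8 and 9.92 with saline and 13.7, 12.3, 12.7 and 14.8 with AAV (0.32, adjusted p = 0.00626). Polr1c counts were 5.63, 7.13, 8.74 and 7.35 against 11.8, 9.66, 11.5 and 8.31 (0.46).

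The remaining genes higher at 21 dpi were Gar1 (0.46), Nop56 (0.42), Rrp1b (0.42), Bop1 (0.40), Npm1 (0.33), Pes1 (0.29), Ftsj3 (0.29), Nip7 (0.28) and Noc2l (0.18). Replicate 1 of HOMO mKO AAV at 21 dpi held the highest Npm1 count, 213, and without it the changes of Npm1 (0.07, adjusted p = 0.50), Nop58 (0.24, adjusted p = 0.0747) and Gar1 (0.37, adjusted p = 0.0507) were not called, nor was that of Nip7. Without replicate 4 of HOMO mKO saline Gar1 stood at 0.29, and without replicate 4 of HOMO mKO AAV Npm1 stood at 0.51. The Noc2l call was lost in 4 of 8 such fits, with a change of 0.12 without replicate 2 of HOMO mKO saline. The 5 lower genes were Rrn3 (-0.36), Nop10 (-0.35), Dkc1 (-0.34), Polr1a (-0.32) and Wdr12 (-0.31), of which all but Nop10 had also been lower at 7 dpi. Without replicate 1 of HOMO mKO AAV, Rrn3 stood at -0.23, still called, and Wdr12 at -0.19 (adjusted p = 0.17), while the Dkc1 call was lost without replicate 2 of HOMO mKO AAV. Nop10 ranged from 21.9 to 27.3 with saline and from 17.4 to 20.7 with AAV, and so lay above saline at 7 dpi and below it at 21 dpi; its change fell by 0.63 between those days (adjusted p = 0.00247). Mybbp1a, with 85.5, 88.4, 97.8 and 90.9 with saline and 76.4, 84.7, 90.4 and 103 with AAV, overlapped and was not called (-0.04). Its change rose by 0.34 ± 0.10 from 7 to 21 dpi (SE, adjusted p = 0.0191). Of the 35 genes, the difference between 21 and 7 dpi was called higher for 6 and lower for 1, where 7.54% and 6.27% of all genes were called. A fit of the 2 HOMO mKO groups at 21 dpi alone called 11 genes rather than 19, and a fit of only the groups of the difference between days called 3 rather than 7.

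Across the 3 days in HOMO mKO muscle, 3 genes were higher each time (Myc, Nhp2 and, by a 7 dpi call that most fits without 1 library lost, Bop1) and 4 were never called (Mrto4, Polr1b, Rrp12 and Ubtf). Calls of higher at 3 dpi, none at 7 dpi and higher at 21 dpi were made for 8 genes: Fbl, Ftsj3, Gar1, Nip7, Nop58, Npm1, Pes1 and Polr1c. By the tests of the difference between days, a fall from 3 to 7 dpi was called for Ftsj3, Gar1, Nop58 and Pes1. A rise from 7 to 21 dpi was called for Fbl alone, so none of these 8 passed both tests. For Gar1, Nip7, Nop58 and Npm1 the 21 dpi call was lost without replicate 1 of HOMO mKO AAV. Another 8 were called at 3 dpi only: Ddx21, Gnl3, Heatr1, Ncl, Nop14, Rrp9, Wdr43 and Wdr75. The 3 dpi calls of Polr1c and Rrp9 were lost in 4 and 5 of 8 fits that left out 1 library. Dkc1, Polr1a, Rrn3 and Wdr12 were lower at 7 and 21 dpi without a call at 3 dpi. How many of all tested genes had each of these patterns of calls was not counted. Over the 35 genes as points, the changes at 3 and 7 dpi correlated with Pearson's r of 0.673 (Spearman's rho 0.49, r 0.463 without Myc), and those at 3 and 21 dpi with r of 0.776 (rho 0.668, r 0.672 without Myc). These describe genes of the same libraries, which are not independent replicates. Correlations over all tested genes were not computed.

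**Figure D5:**
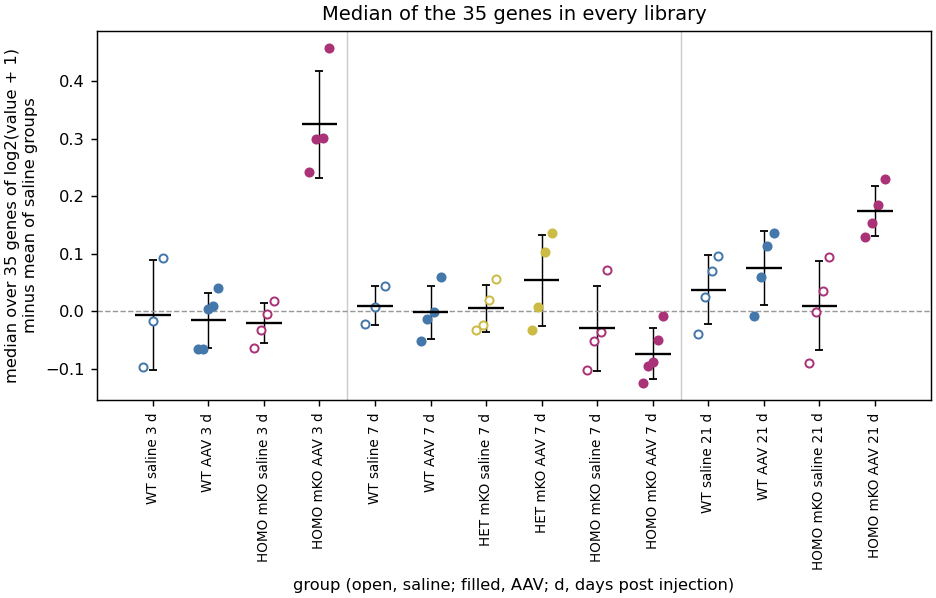
For each library, the median over the 35 genes of log2(value + 1) minus the gene's mean of the saline groups, by group; open points are saline and filled points AAV. The 4 HOMO mKO AAV libraries at 3 dpi range from 0.24 to 0.46, above every other library, of which the highest is at 0.23.

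Library by library, the median over the 35 genes relative to saline muscle was 0.24 to 0.46 in HOMO mKO AAV at 3 dpi, -0.12 to -0.01 at 7 dpi and 0.13 to 0.23 at 21 dpi. Saline libraries ranged from -0.10 to 0.10, so the 7 dpi libraries lay in or just below the saline range and the 21 dpi libraries above it. WT AAV libraries ranged from -0.07 to 0.04 at 3 dpi, -0.05 to 0.06 at 7 dpi and -0.01 to 0.14 at 21 dpi. HET mKO AAV libraries at 7 dpi ranged from -0.03 to 0.14.

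HET mKO muscle at 7 dpi had 7 genes higher and 3 lower, where 19.6% and 20.8% of all genes were called (40.4% in all), so the share called higher (7 of 35) was close to that of all genes. The higher genes were Myc, Gar1 (0.52, adjusted p = 0.00541), Nhp2 (0.45, adjusted p = 0.000453), Polr1c (0.41), Bop1 (0.35), Ftsj3 (0.32) and Nop16 (0.27). Nhp2 counts were 10.97, 11.2, 11.4 and 8.75 with saline and 13.8, 16.6, 16.5 and 12.5 with AAV, without overlap. Gar1 counts were 4.11, 4.90, 5.22 and 3.93 with saline and 5.21, 7.33, 8.98 and 6.61 with AAV, where 1 AAV library lay at the top of the saline range. Dkc1 (-0.40), Rrn3 (-0.28) and Mybbp1a (-0.23) were lower, and these 3 were lower in HOMO mKO muscle on that day too. The changes of the 35 genes in HOMO mKO and HET mKO muscle at 7 dpi correlated with r of 0.845 (rho 0.784, r 0.801 without Myc). Shared calls and the correlation were not computed over all tested genes, so neither marks a trait of this list.

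The HOMO mKO change minus the HET mKO change at 7 dpi was called for 0 of 35 genes by limma, where 2.54% of all genes were called lower and 0.699% higher, with 7 of the 35 lower at an unadjusted p under 0.05, and edgeR, DESeq2 and limma voom called 0. Against WT at 7 dpi, the HET mKO change was higher for 3 genes, Gar1 (0.67), Nhp2 (0.51) and Bop1 (0.45), and lower for 0, where 10.3% of all genes were called higher and 9.88% lower. Without 1 library (replicate 3 of WT saline, replicate 1 of WT AAV or replicate 3 of HET mKO AAV) 1 gene was called, and without replicate 2 of WT saline 5 were called, as in a fit of only these groups. The HOMO mKO change minus the WT change at 7 dpi was higher for Nhp2 (0.62) and lower for 5 genes, where 9.29% and 10.9% of all genes were called. Those 5 were Polr1a (-0.50), Nolc1 (-0.50), Dkc1 (-0.45), Rrn3 (-0.43) and Mybbp1a (-0.35). At 7 dpi the viral transgene stood at 14.3 to 29.003 normalised counts in HOMO mKO AAV libraries, 56.9 to 114 in HET mKO and 158 to 324 in WT, and its part in these differences was not tested.

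WT muscle changed late. At 21 dpi, 7 genes were higher with AAV and 3 lower, where 19.7% and 21.3% of all genes were called (40.9% in all). The share of the list called higher was close to that of all genes, and the share called lower was below it. Nip7 (0.38), Fbl (0.33), Nop58 (0.33), Nhp2 (0.32), Bop1 (0.31), Pes1 (0.24) and Ftsj3 (0.22) were higher, and Dkc1 (-0.30), Gnl3 (-0.25) and Rrn3 (-0.24) lower. Of these calls 4 were left without replicate 1 of WT AAV or without replicate 4 of WT AAV, 5 without replicate 4 of WT saline, and 6 in a fit of the 2 groups alone. All 7 of the higher genes were also higher in HOMO mKO muscle at 21 dpi, where 14 of the 35 and 29.7% of all tested genes were higher. The changes of the 35 genes correlated between these genotypes with r of 0.707 (rho 0.774, r 0.768 without Myc). Neither the overlap nor the correlation was computed over all tested genes, so neither marks a trait of this list. The HOMO mKO change minus the WT change at 21 dpi was called for 1 gene, Nop10, which was lower, where 3.79% of all genes were called lower and 1.84% higher (5.62% in all). That count was 0 without replicate 4 of WT saline, replicate 2 of HOMO mKO saline or replicate 1 of HOMO mKO AAV, and 2 without replicate 3 of WT AAV or replicate 4 of HOMO mKO AAV.

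Without AAV, 1 of the 35 genes was called between genotypes. HOMO mKO saline muscle over the 3 days differed from WT in Rrp12, a factor of subunit export, with group means of 53.5, 45.5 and 49.8 at 3, 7 and 21 dpi against 40.8, 39.6 and 43.3 in WT (0.25 ± 0.08 SE, adjusted p = 0.0253), where 7.31% of all genes were called higher and 5.04% lower. That single call was lost without replicate 2 of WT saline at 3 dpi, replicate 3 of WT saline at 7 dpi or replicate 1 of HOMO mKO saline at 7 dpi. It became 2 calls without replicate 1 of WT saline at 3 dpi, or without replicate 3 or 4 of HOMO mKO saline at 21 dpi. HET mKO against WT saline muscle at 7 dpi and saline muscle at 3 against 21 dpi gave 0 calls in the list by limma (of all genes 0.131% and 0.0691% were called higher and lower in the first, 0.169% and 0.376% in the second), with 1 and 2 genes at an unadjusted p under 0.05 and 0 calls by edgeR, DESeq2 or limma voom. Per kilobase of exon, with all annotated exons of a gene merged, the mean level over the 56 libraries was highest for Npm1 (37.6 normalised counts per kilobase), Nop10 (21.4), Ncl (17.1) and Mybbp1a (14.9) and lowest for Rrp1b (1.02), with Myc at 1.88.

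Other assembly factors of the pathway were also higher at 3 dpi in HOMO mKO muscle. Of all tested genes 17.4% were higher and 17.2% lower. Of 40 other small subunit factors 14 were higher and 0 lower (median 0.21), and of 40 other large subunit factors 19 were higher and 0 lower (median 0.26). Examples were Tsr1 (0.86), Pwp2 (0.61), Wdr3 (0.53) and Rrp7a (0.46) for the small subunit and Ddx27 (0.72), Wdr74 (0.64), Eif6 (0.63) and Mak16 (0.59) for the large. Of the 12 measured genes of the RNA exosome, which trims precursor RNA, 4 were higher (Mphosph6 0.50, Exosc3 0.38, Exosc1 0.35 and Dis3 0.26). In contrast, 0 of 10 other RNA polymerase I genes and 0 of 20 RNA polymerase III genes were called in either direction by limma, edgeR, DESeq2 or limma voom. At an unadjusted p under 0.05 these lists held 0, and 1 higher and 2 lower. Of 9 snoRNP assembly factors 1 was higher. At 7 dpi the other small and large subunit factors were each split into 3 higher and 5 lower, and at 21 dpi into 12 higher and 5 lower and 8 higher and 1 lower. Of all tested genes, 20.6% were higher and 22.5% lower at 7 dpi and 29.7% and 29.6% at 21 dpi, so on these days the share called higher in both lists was near or below that of all genes. RNA polymerase III genes had 5 lower and 1 higher at 7 dpi and 8 lower and 3 higher at 21 dpi. Tsr1 stood at -0.29 at 7 dpi and 0.03 at 21 dpi, while Ddx27 stood at 0.33 and 0.63.

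Of 20 other genes commonly listed as Myc targets, 9 were higher and 4 lower at 3 dpi, where 17.4% and 17.2% of all genes were called; the share called lower was thus near that of all genes. Odc1, the entry enzyme of polyamine synthesis, changed by 1.20, 0.95 and 0.58 at 3, 7 and 21 dpi, and Srm, the spermidine synthase, by 1.11, 0.43 and 0.32, the last not called. Eif4a1, an RNA helicase of translation initiation, changed by 0.92, 0.33 and 0.71, whereas Phb, prohibitin, was lower on all 3 days (-0.47, -0.31 and -0.48). Among 9 genes of the Myc and Max network, 1 was higher (Mlx, 0.33) and 3 lower at 3 dpi: Mycn (-0.82), Mxi1, an antagonist of Myc (-0.52), and Mlxip (-0.48). All 3 were also below saline at 7 dpi (-0.79, -0.77 and -0.63) and 21 dpi (-0.98, -0.93 and -0.43). At an unadjusted p under 0.05, the 9 genes held 3 higher and 3 lower at 7 dpi and likewise at 21 dpi. Of the 13017 tested genes, 6580 and 8218 passed that threshold in either direction on these days.

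Markers of other cells moved in the same comparisons. In HOMO mKO muscle at 3, 7 and 21 dpi, 17.4%, 20.6% and 29.7% of all tested genes were called higher. The shares called lower were 17.2%, 22.5% and 29.6%, and the marker counts that follow stand against these. All 10 macrophage markers were higher in HOMO mKO muscle on each day, with median changes of 2.62, 2.16 and 3.55 at 3, 7 and 21 dpi. Their summed level was 315 to 879 with AAV against 59.2 to 141 with saline at 3 dpi, 271 to 443 against 59.1 to 93.7 at 7 dpi, and 279 to 2640 against 31.7 to 81.1 at 21 dpi. HET mKO muscle at 7 dpi had sums of 201 to 373 against 48.5 to 93.1, and WT muscle at 21 dpi 293 to 992 against 51.1 to 64.1. WT muscle at 3 dpi had 102 to 287 with AAV against 71.4 to 73.1 with saline, with 0 of 10 markers called by limma, edgeR, DESeq2 or limma voom and 7 higher at an unadjusted p under 0.05. All 7 tested proliferation markers were higher on each day in HOMO mKO muscle (medians 1.56, 1.06 and 1.99), with sums of 18.8 to 48.2 at 3 dpi, 14.2 to 22.9 at 7 dpi and 20.2 to 140 at 21 dpi. Of 8 fibre markers 7 were lower on each of these days, with sums of 75211 to 99643 against 111097 to 132214 at 3 dpi and 70323 to 96034 against 137255 to 141914 at 7 dpi. Satellite cell and myoblast markers had 2 of 5 higher and 1 lower at 3 dpi, 2 higher at 7 dpi and 4 higher at 21 dpi, and fibroblast markers 3 of 6 higher and 1 lower, then 5 and 5 higher. Endothelial markers had 3, 4 and 4 of 5 lower on these days. T and natural killer cell markers had 0 of 6 called at 3 dpi by limma, edgeR, DESeq2 or limma voom (0 at an unadjusted p under 0.05), 5 higher at 7 dpi and 6 at 21 dpi. At 7 dpi edgeR and DESeq2 each called 5 of these 6 and limma voom 1. The sum of these markers was low on that day, at 2.7 to 9.85 with AAV and 0.46 to 1.48 with saline. In HOMO mKO AAV libraries the macrophage sum had medians of 768, 438 and 845 at 3, 7 and 21 dpi, and the proliferation sum 41.8, 18.5 and 40.6. The median change of the 35 genes on these days was 0.37, -0.08 and 0.14. None of the macrophage markers was at 0 in a whole group. The part of these cells, or of proliferation, in the results was not tested.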

How the data were processed

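Total RNA of 56 tibialis anterior muscles was extracted with TRI reagent and made into libraries with the NEBNext Ultra II Directional kit, per the labels' protocols. FastQC, Bowtie, RSEM, limma and the mouse build GRCm38/mm10 were named without versions, per the submitters' processing notes; for the strand setting of counting, the sources used here name none. The authors deposited a signal of normalised read counts on a linear scale, each value being reads with 0.5 added, over an effective library size and scaled to CPM. Whole reads were recovered from these steps for all values within 0.02 reads, with 0 values left out, and were used only for the count tools. Columns left without a sample numbered 0.

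Groups came from the sample titles. Log2(value + 1) was fitted with limma 3.58.1 (R 4.3.3) with an intensity trend, 14 group means and a gene-wise spread shared by all 56 libraries. The filter was a mean of at least 1 CPM (13017 genes tested, 1853 left out), the viral transgene was excluded, and p-values were adjusted by Benjamini-Hochberg over all tested genes within each of 17 comparisons. Changes of weakly expressed genes come out too small on this scale. Antisense partners and near-identical copies, such as pseudogenes of Npm1, may share reads. The genes and lists were chosen with earlier results of these data known. Values in every library are given for Myc and up to 2 genes per role with the smallest p at 3 dpi in HOMO mKO muscle; of the other lists up to 4 genes are named by the same rule. Promoter stretches are given for genes with CACGTG, and those of Gar1, Nop58 and Nhp2 were added after the values were seen. Coordinates are from GENCODE M21 and promoter windows from RefSeq. Replicate numbers occur in all groups; in HOMO mKO muscle at 21 dpi and HET mKO muscle at 7 dpi every same-numbered pair of saline and AAV libraries deviated together (correlations 0.165 to 0.233 and 0.128 to 0.178), and a replicate block within genotype and day called 20 and 10 of the 35 genes there, against 19 and 10. The fit was tested on simulated data. The alternatives, 11 in number, were pseudocounts of 0.25 and 4, no filter, a mean of at least 5, median-of-ratios rescaling, quantile normalization, only the groups compared, a replicate block, and edgeR 4.0.16, limma voom and DESeq2 1.42.0 on recovered reads; 1 was added after seeing the data, and each library was left out in turn.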

Additional observations from a re-analysis of the deposited data

Results flagged for a closer look

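In 11 of 156 sets of 1 named gene in 1 group of 4 or 5 libraries, 1 library stood apart from the others by Dixon's criterion, where chance gives about 1 in 20. In WT AAV muscle at 7 dpi, replicate 3 was high for Myc (4.801) and Gar1 (6.612). HOMO mKO saline muscle at 3 dpi had replicate 3 high for Polr1c (7.067) and Ddx21 (61.04) and replicate 4 high for Nhp2 (11.05). In WT saline muscle at 21 dpi, replicate 4 stood apart for Ubtf (37.07) and Heatr1 (13.83). The others were Nop58 in replicate 1 of HOMO mKO AAV at 21 dpi (29.71), Ftsj3 in replicate 3 of HOMO mKO AAV at 3 dpi (51.69), Nhp2 in replicate 5 of WT AAV at 3 dpi (9.344) and Nhp2 in replicate 4 of HET mKO saline at 7 dpi (8.754).

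Changes with AAV differed between groups by a test of the difference itself for 12 of the 35 genes between HOMO mKO and WT at 3 dpi, 6 at 7 dpi and 1 at 21 dpi, and for 3 between HET mKO and WT at 7 dpi. Within HOMO mKO muscle they differed for 16 genes between 7 and 3 dpi and for 7 between 21 and 7 dpi. The differences in log2 change between HOMO mKO and WT at 3 dpi were 1.918 for Myc, 0.8814 for Nop58, 0.8052 for Nhp2, 0.6286 for Ftsj3, 0.5221 for Ddx21, 0.4945 for Mybbp1a, 0.4769 for Nop14 and 0.4436 for Pes1. At 7 dpi they were 0.6155 for Nhp2 and -0.3549 for Mybbp1a, and between HET mKO and WT 0.5125 for Nhp2 and 0.6705 for Gar1. From 3 to 7 dpi the HOMO mKO change differed by -0.7519 for Heatr1, -0.7426 for Mybbp1a, -0.7174 for Gar1, -0.6339 for Nop58, -0.6059 for Ddx21, -0.5197 for Nop14, -0.4882 for Ftsj3 and -0.3383 for Pes1. From 7 to 21 dpi it differed by 0.6424 for Fbl and 0.3391 for Mybbp1a.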

How the results depend on the processing

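No called gene of the 35 changed direction under any of the 12 alternatives or with any library left out. Calls kept under all of them numbered 20 of 24 in HOMO mKO at 3 dpi, 9 of 14 at 7 dpi, 8 of 19 at 21 dpi, 0 of 10 in WT at 21 dpi, 7 of 10 in HET mKO at 7 dpi, 8 of 12, 2 of 6 and 0 of 1 in HOMO mKO minus WT at 3, 7 and 21 dpi, 1 of 3 in HET mKO minus WT, 7 of 16 in HOMO mKO 7 minus 3 dpi, 3 of 7 in 21 minus 7 dpi and 0 of 1 in HOMO mKO minus WT saline. Where counts moved by over 1.5 times the cause was not tested. Fitting only the groups compared gave 11 of the 35 (against 19) in HOMO mKO at 21 dpi, 6 (10) in WT at 21 dpi, 0 (1) in HOMO mKO minus WT at 21 dpi, 5 (3) in HET mKO minus WT, 3 (7) in HOMO mKO 21 minus 7 dpi and 3 (1) in HOMO mKO minus WT saline. A replicate block gave 2 and a block within genotype and day 0 in HOMO mKO minus WT at 21 dpi. Leaving out libraries gave 4 to 11 in WT at 21 dpi, 0 to 2 in HOMO mKO minus WT at 21 dpi, 1 to 5 in HET mKO minus WT, 10 to 19 in HOMO mKO 7 minus 3 dpi and 0 to 2 in HOMO mKO minus WT saline.

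Of all tested genes, DESeq2 called 8 and 7 in WT at 3 and 7 dpi (against 0). A block within genotype and day gave 801 (1269) in HOMO mKO minus WT at 3 dpi. Fitting only the groups compared gave 121 (732) in HOMO mKO minus WT at 21 dpi, 510 (776) in HOMO mKO 7 minus 3 dpi and 615 (1798) in 21 minus 7 dpi. HET mKO against WT saline gave 17 without filter, 12 with quantile normalization, 41 with only these groups, 8 with a replicate block, 13 with edgeR, 12 with voom and 62 with DESeq2 (26). Saline at 3 against 21 dpi gave 13 with quantile normalization, 595 with only these groups, 30 with a replicate block and 153 with DESeq2 (71). Leaving out libraries gave 625 to 2314 in HOMO mKO minus WT at 3 dpi, 404 to 1992 at 21 dpi, 278 to 433 in HOMO mKO minus HET mKO, 1061 to 3245 in HOMO mKO 21 minus 7 dpi, 0 to 71 in HET mKO minus WT saline and 6 to 104 in saline at 3 against 21 dpi. Quantile normalization shifted the median of all genes by over 0.1 in 1 comparison, HOMO mKO at 21 dpi (from -1e-04 to -0.1157). Of 26 same-numbered pairs 12 had correlations over 0.1 (range -0.241 to 0.311), and 15 libraries correlated best with their own number. Every pair passed in 2 comparisons, and in others only some pairs did, with the highest value in replicate 2 of WT at 7 dpi. The labels do not say whether same-numbered libraries belong together, so pairing is not known for any comparison. The replicate block changed no other count by over 1.5 times. Depth limits low genes most: Myc stood at 1.40 to 5.65 normalised counts over all saline libraries, which are values scaled to CPM and not numbers of reads.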
